A study of Mus musculus with 24 samples.

Results

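Histone H3 acetylated at lysine 9 (H3K9ac) was followed at 42 homeobox genes outside the Hox clusters, in day 5 embryoid bodies of mouse. The genes were named by family: Dlx (6 genes), Irx (6), Lhx (8), Six2 to Six6 (5), Nkx2 (4), Nkx6 (2), Msx (2), Tlx (3), En (2), Emx (2) and Barx (2). All 42 were found among the 21887 protein-coding genes of the nuclear chromosomes in the RefSeq gene table. Embryoid bodies are the aggregates that embryonic stem cells form when they differentiate. The tested cells were the Gcn5-/- (null) clones 4_C2 and 6_C4, and the cells they were set against were the Gcn5fx/fx (fx/fx) clones 4_1 and 6_1, which carry floxed Gcn5 alleles. All were C57BL/6 and were collected at day 5. Gcn5, the product of Kat2a, is an acetyltransferase able to modify this lysine. Clones 6_C4 and 6_1 form isolate pair 6, and clones 4_C2 and 4_1 form isolate pair 4. Each genotype is therefore known from 2 clones, with 2 replicate libraries per clone. The labels do not say whether the replicates came from separate cultures, so a p-value describes only the spread between these libraries, which may be technical. Of the 24 samples in the series, the 8 H3K9ac libraries were used.

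Homeobox genes encode transcription factors that bind DNA through a homeodomain, and the families studied here set regional identity in the embryo, in the forebrain, neural tube, eye, limb, kidney, heart and gut. In embryonic stem cells many of them lie in CpG-rich promoters held by Polycomb complexes and carry both active and repressive histone marks. H3K9ac lies mostly at active promoters. In bulk embryoid bodies, fewer cells with the mark and less mark per cell cannot be told apart.

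The data were lists of called peaks, giving a start and an end for each peak and no height. A gene was marked in a library when a peak overlapped the window of 1000 bp either side of its left or right annotated end. The covered length of a gene was the summed length of those peaks. The lists held 12041 to 18932 peaks in the null libraries and 13260 to 20809 in the fx/fx libraries, and the shortest was replicate 2 of clone 4_C2. Depth is unknown, and a longer list can mark more genes. Kat2a was marked in all 8 libraries, with 3132 ± 127 bp covered in null and 3630 ± 269 bp covered in fx/fx (SD over 4 libraries of each genotype). The labels do not name the deleted portion, so this does not check the genotype. Of 6 embryonic stem cell and epiblast genes, 4 to 6 were marked in null libraries and 6 in every fx/fx library, while 0 of 6 blood genes were marked in any library. Of 6 feeder fibroblast genes, 0 to 1 were marked in null and 0 to 2 in fx/fx libraries, and Postn, Lum and S100a4 were marked in none. The ranges were 1 to 4 and 2 to 5 for primitive streak and mesoderm, 0 to 4 and 1 to 4 for endoderm, and 2 to 5 and 4 to 5 for neuroectoderm, null before fx/fx and of 6 each. Msgn1 and Afp were marked in no library. The part of cell composition in the results that follow was not tested.

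Start regions of 5 genes whose values are described below are printed as examples of the sequence under the marks. They run from 250 bp before to 50 bp after the RefSeq start (GRCm38.p6, the primary sequence of mm10) and are written 5′ to 3′ on the gene's strand, with every CpG in capitals. The first 4 windows lay in a peak in some libraries only, and the fifth, that of Lhx1, lay wholly inside a peak in all 8.
Nkx6-1, chr5:101664662-101664961, minus strand: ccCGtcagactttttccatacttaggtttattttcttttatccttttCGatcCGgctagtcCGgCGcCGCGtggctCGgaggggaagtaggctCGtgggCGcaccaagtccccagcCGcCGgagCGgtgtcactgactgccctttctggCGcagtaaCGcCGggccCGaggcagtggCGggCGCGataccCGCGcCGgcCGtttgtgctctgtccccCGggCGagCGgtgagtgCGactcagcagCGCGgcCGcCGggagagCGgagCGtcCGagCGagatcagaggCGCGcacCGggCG
Nkx6-2, chr7:139582748-139583047, minus strand: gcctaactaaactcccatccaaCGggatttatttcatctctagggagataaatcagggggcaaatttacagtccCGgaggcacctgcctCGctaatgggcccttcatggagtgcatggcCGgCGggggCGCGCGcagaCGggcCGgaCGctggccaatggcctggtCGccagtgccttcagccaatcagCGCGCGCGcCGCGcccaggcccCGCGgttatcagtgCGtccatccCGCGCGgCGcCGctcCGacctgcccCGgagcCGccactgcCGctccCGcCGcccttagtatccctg
Six2, chr17:85688205-85688504, minus strand: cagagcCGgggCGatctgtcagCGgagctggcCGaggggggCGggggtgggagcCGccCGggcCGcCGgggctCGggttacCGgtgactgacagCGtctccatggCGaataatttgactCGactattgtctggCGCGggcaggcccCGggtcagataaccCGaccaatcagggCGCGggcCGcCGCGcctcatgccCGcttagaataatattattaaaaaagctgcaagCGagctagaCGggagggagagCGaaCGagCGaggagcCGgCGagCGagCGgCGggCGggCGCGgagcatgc
Emx2, chr19:59458440-59458739, plus strand: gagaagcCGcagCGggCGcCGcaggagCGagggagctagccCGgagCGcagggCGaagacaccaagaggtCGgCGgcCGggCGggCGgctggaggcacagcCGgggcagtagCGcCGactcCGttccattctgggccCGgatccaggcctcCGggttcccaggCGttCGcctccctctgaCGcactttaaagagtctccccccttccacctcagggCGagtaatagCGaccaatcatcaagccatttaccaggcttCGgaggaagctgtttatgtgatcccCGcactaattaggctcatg
Lhx1, chr11:84525485-84525784, minus strand: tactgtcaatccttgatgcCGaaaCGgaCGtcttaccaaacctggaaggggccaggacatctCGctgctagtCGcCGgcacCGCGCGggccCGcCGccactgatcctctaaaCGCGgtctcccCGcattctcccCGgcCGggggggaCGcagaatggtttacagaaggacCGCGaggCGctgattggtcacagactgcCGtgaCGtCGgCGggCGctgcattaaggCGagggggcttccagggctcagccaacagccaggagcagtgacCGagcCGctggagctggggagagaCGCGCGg

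These windows hold 40 CpGs at Nkx6-1, 32 at Nkx6-2, 37 at Six2, 26 at Emx2 and 31 at Lhx1. All 300 bases of the Nkx6-1 and Nkx6-2 windows lay in a peak in both 6_C4 libraries, and 0 bases did in either 4_C2 library. In the fx/fx clone 4_1 the Nkx6-1 window was covered over 300 and 227 bases, and the Nkx6-2 window over 300 and 117. Both windows were covered in full in the 2 libraries of clone 6_1. The steadily covered Lhx1 window held fewer CpGs than the windows of Nkx6-1, Nkx6-2 and Six2, and more than that of Emx2.

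Across libraries the homeobox genes were marked intermittently. At least 1 library marked 37 of the 42 genes. All 8 libraries marked 10 of them (23.8%), namely Dlx4, Irx3, Irx5, Lhx1, Lhx2, Six4, Six5, Six6, Nkx6-1 and En1, against 45.3% of all protein-coding genes. Between 1 and 7 libraries marked 27 of the 37 (73.0%), against 27.2 percent of the 13622 protein-coding genes marked at least once. No library marked an end of Irx2, Lhx3, Lhx4, Lhx8 or Nkx2-2. Peaks did lie elsewhere between their ends: inside Irx2 in all 8 lists, inside Lhx4 in 7, Lhx8 in 6, Lhx3 in 3 and Nkx2-2 in 1. A RefSeq start, which can lie away from the annotated end, was within 1000 bp of a peak in 8 lists at Irx2, 7 at Lhx4, 1 at Lhx3, and 0 at Lhx8 and Nkx2-2. The 88 other homeobox genes, a list that leaves out these 42, fell into the same classes: 21 were marked in all 8 libraries, 54 in 1 to 7 and 13 in none.

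Lists cut to their 12041 widest peaks, the length of the shortest list, gave an intermittent share of 79.3% for the homeobox genes and 31.6% for all genes. That cut keeps the widest peaks and so removes short ones first, and the part of list length in the share was not tested. Covered lengths at these genes were short. A covered length sums all peaks at the ends of a gene, so it is not a peak width. Among marked genes, the median covered length per library was 1443 to 1628 bp in null and 1670 to 2069 bp in fx/fx libraries. The same median over all marked protein-coding genes was 1904 to 2402 bp in null and 2166 to 2647 bp in fx/fx libraries, so every library's value for the homeobox genes lay below its value for all genes.

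**Figure D1:**
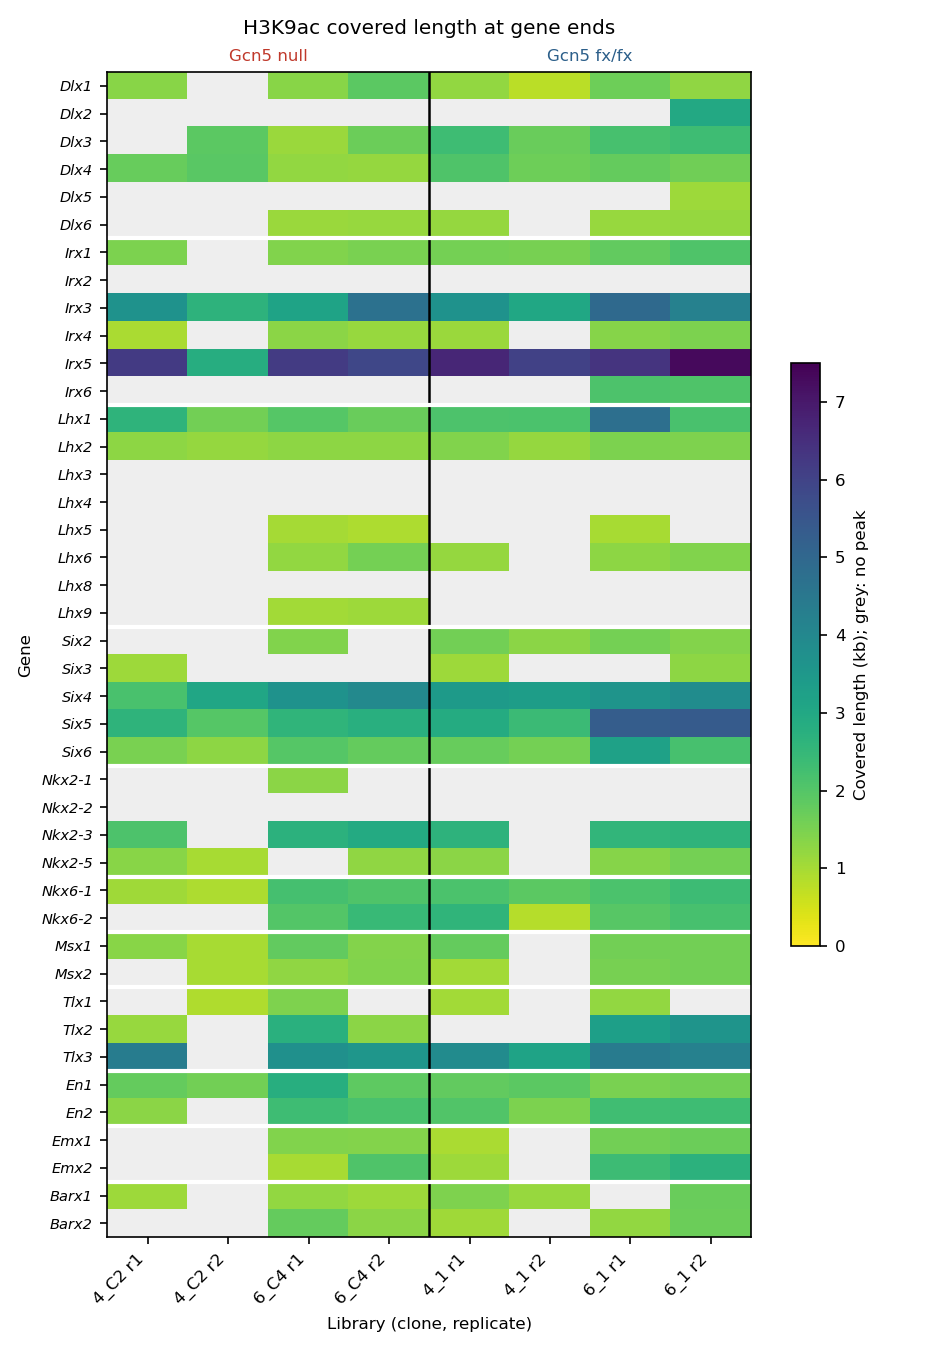
Covered length (kb) at the gene ends of the 42 homeobox genes (rows, by family) in 4 null and 4 fx/fx libraries (columns); grey means no peak at either end. Irx5, Irx3 and Six4 have long coverage in nearly every column. Tlx3 has it in all but 4_C2 replicate 2, and Six5 is longest in the 2 columns of clone 6_1. The grey cells gather in 4_C2 replicate 2 and 4_1 replicate 2.

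By genotype, the number of marked homeobox genes was 21, 15, 32 and 30 of 42 in null libraries (4_C2 replicates 1 and 2, then 6_C4 replicates 1 and 2) and 30, 18, 31 and 33 in fx/fx libraries (4_1 replicates 1 and 2, then 6_1 replicates 1 and 2). Values per library follow this order throughout. Null libraries averaged 24.5 ± 7.94 and fx/fx libraries 28.0 ± 6.78 marked genes (SD, n = 4 each), a difference smaller than either spread. It was -6.0 genes within pair 4 and -1.0 within pair 6. Without 4_C2 replicate 2 the null mean was 27.7 ± 5.86 (n = 3), 0.333 below that of fx/fx. The same counts over all genes were 53.7, 47.5, 57.1 and 56.3% in null and 55.5, 51.6, 59.0 and 57.7% in fx/fx libraries. In lists cut to equal length, a cut that removes short peaks first, null libraries marked 15.0 ± 1.41 homeobox genes (14 to 17). There fx/fx libraries marked 17.25 ± 1.26 (16 to 19), a difference larger than either SD, though the ranges overlapped. Over all genes those lists marked 10433 ± 139 genes in null and 10557 ± 323 in fx/fx libraries.

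Fewer null than fx/fx libraries marked 16 of the 37 genes (43.2%), beside 16.3 percent of all marked genes. They were Dlx1, Dlx2, Dlx3, Dlx5, Dlx6, Irx1, Irx6, Lhx6, Six2, Six3, Nkx6-2, Tlx3, En2, Emx1, Emx2 and Barx2. More null libraries marked 5 of 37 (Lhx5, Lhx9, Nkx2-1, Msx1 and Tlx2), beside 5.19 percent. A gene marked in all 8 libraries cannot differ in this way. Of the genes marked in 1 to 7 libraries, fewer null libraries marked 16 of 27 homeobox genes and 2214 of 3710 among all genes. The reverse held at 5 of 27 and at 707 of 3710. On this base the homeobox shares were close to those of all genes. Leaving out 4_C2 replicate 2, a smaller share of null libraries marked 15 of 37, beside 11.7 percent, and a larger share marked 8, beside 10.3 percent. Dlx1, Irx1, Tlx3 and En2 were marked in every library except 4_C2 replicate 2, beside 5.18 percent of all marked genes. Among the 88 other homeobox genes, fewer null libraries marked 28 and more null libraries marked 6. No gene of the 37 was marked in all fx/fx and no null libraries (0.0734 percent of all marked genes) or in all null and no fx/fx libraries (0.0 percent). Without 6_C4 replicate 1 there was 1 such gene of the first kind, Six2, and the share of all genes was not counted there.

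**Figure D2:**
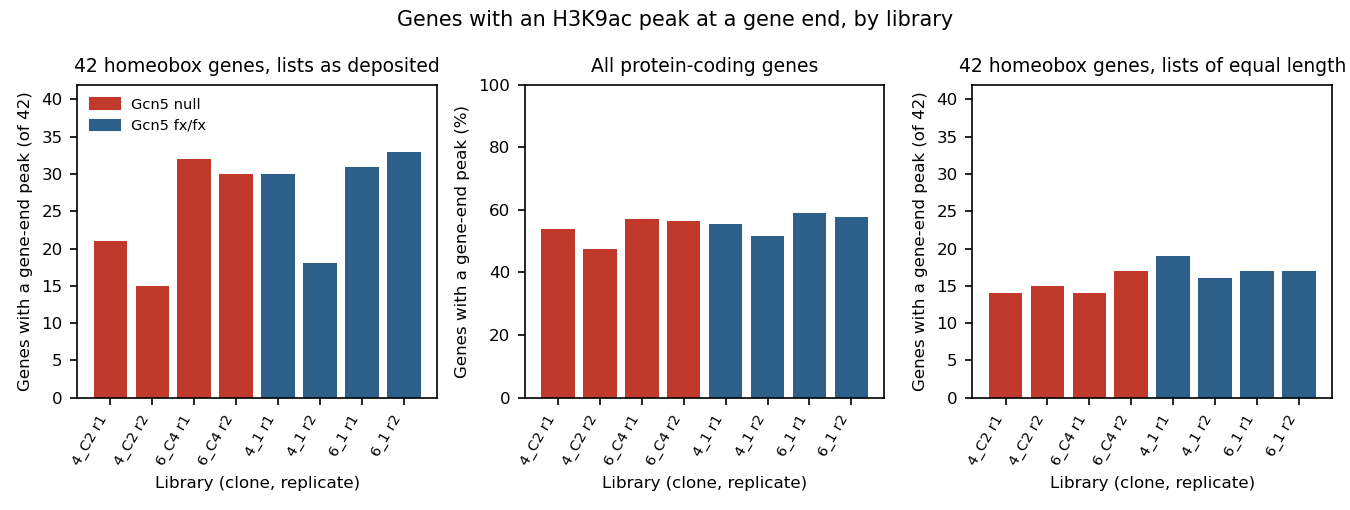
Genes with a peak at a gene end in each library: the 42 homeobox genes in the lists as deposited (left, number), all 21887 protein-coding genes (middle, percent) and the 42 genes in lists cut to 12041 peaks (right, number). Red bars are null and blue bars fx/fx; the spread of the left panel, 15 to 33, narrows to 14 to 19 in the right panel.

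Within isolate pairs, the strictest rule asked for a peak in both libraries of a clone and neither of its partner. In pair 4, peaks were absent from null and present in fx/fx at 2 of 31 genes, Six2 and Nkx6-2, beside 1.97 percent of all genes marked in that pair, and the reverse held at 0, beside 0.402 percent. In pair 6, the first pattern held at 1 of 37 genes, Irx6, beside 1.14 percent, and the reverse at Lhx9 alone, beside 0.29 percent. The first pair 4 count became 7 without 4_C2 replicate 1 and 7 without 4_1 replicate 2. The reverse count in pair 4 became 1 without 4_C2 replicate 2 and 2 without 4_1 replicate 1. In pair 6 the first count became 4 without 6_1 replicate 1, and 2 without either 6_C4 library. The reverse count there became 2 without 6_C4 replicate 2 or without either 6_1 library. Each of the counts from all libraries rests on 2 libraries a clone. Leaving out a library makes the rule easier to pass for any gene. The shares of all genes under these omissions were not counted, so the rises cannot be read as particular to the homeobox genes.

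Six2 maintains nephron progenitors in the kidney. Its covered length was 0, 0, 1408 and 0 bp in null libraries and 1604, 1299, 1570 and 1404 bp in fx/fx libraries (chromosome 17, 85662736 to 85688254). The single marked null library lay inside the fx/fx range, and the others were at 0. Replicate 2 of 4_C2 did have a peak between the gene's ends, outside the end windows. On the log2(bp + 200) scale the difference was -2.31 ± 0.75 (SE), with an adjusted p of 0.410 in limma across 12349 genes.

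Nkx6-2, which patterns the ventral neural tube, covered 0, 0, 2014 and 2435 bp in null libraries and 2602, 832, 1948 and 2180 bp in fx/fx libraries. Only the pair 4 null libraries were at 0, and the pair 6 libraries of both genotypes overlapped (log2 difference -1.50 ± 0.70, SE; limma adjusted p = 0.443). The region at its start also lies within 1000 bp of an end of the neighbouring gene Inpp5a. Its paralog Nkx6-1, needed for pancreatic beta cells and ventral neurons, was marked in all 8, with 1083, 920, 2212 and 2053 bp in null and 2114, 1896, 2115 and 2369 bp in fx/fx libraries. Here too the low values were the 2 libraries of 4_C2, while 6_C4 and 6_1 overlapped. The log2 difference was -0.47 ± 0.17 (SE; limma adjusted p = 0.410). The test of whether the genotype difference itself differed between pairs, pair 6 minus pair 4, gave 0.81 ± 0.17 for Nkx6-1 (limma adjusted p = 0.411) and 3.18 ± 0.77 for Nkx6-2 (0.447). That test called 0 of 30 homeobox genes, beside 0.081 percent of all genes for a positive and 0.0081 percent for a negative difference. Without 4_C2 replicate 1 it called 5 of the homeobox genes as positive, at 935 genes called in all, Nkx6-1 among them at a log2 difference of 0.91.

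Irx6 and Lhx9 were each marked at a gene end in a single clone. Irx6, an Iroquois gene on chromosome 8, covered 0 bp in all null libraries and 0, 0, 2106 and 2069 bp in fx/fx libraries. Lhx9, a LIM-homeodomain gene needed for gonad formation, covered 0, 0, 1053 and 1113 bp in null libraries and 0 bp in all fx/fx libraries. At Lhx9, 1 null library of pair 4 had a peak between the gene's ends, outside the end windows. Its RefSeq start was within 1000 bp of a peak in 1 list. Irx6 and Lhx9 were each marked in fewer than 4 lists and were tested with an exact two-sided permutation test. Its smallest p is 0.0286 with 4 libraries against 4, and p was 0.429 for each.

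In the limma fit of gene-end covered length, with isolate pair as a covariate, 30 homeobox genes entered (those marked in at least 4 libraries, a filter that a gene could pass through the genotype where it was marked). None was called by genotype, beside 0.0 percent of 12349 genes in either direction. At an unadjusted p under 0.05, 0 homeobox genes were higher in null and 4 were lower (Six2, Six5, Six6 and Nkx6-1), against 29 higher and 1426 lower among all genes. The difference was below 0 for 26 of 30, with a median of -0.38, and below 0 for 84.1% of all genes, with a median of -0.14. After each library was centred on its median gene, 23 of 30 lay below 0 with a median of -0.24. Of all genes 49.2% lay below 0, with a median of 0.003. Of the genes tested, 10 of 30 homeobox genes and 9912 of 12349 in all were marked in all 8 libraries. The others had libraries at 0 bp, so these medians and shares do not have a like base.

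**Figure D3:**
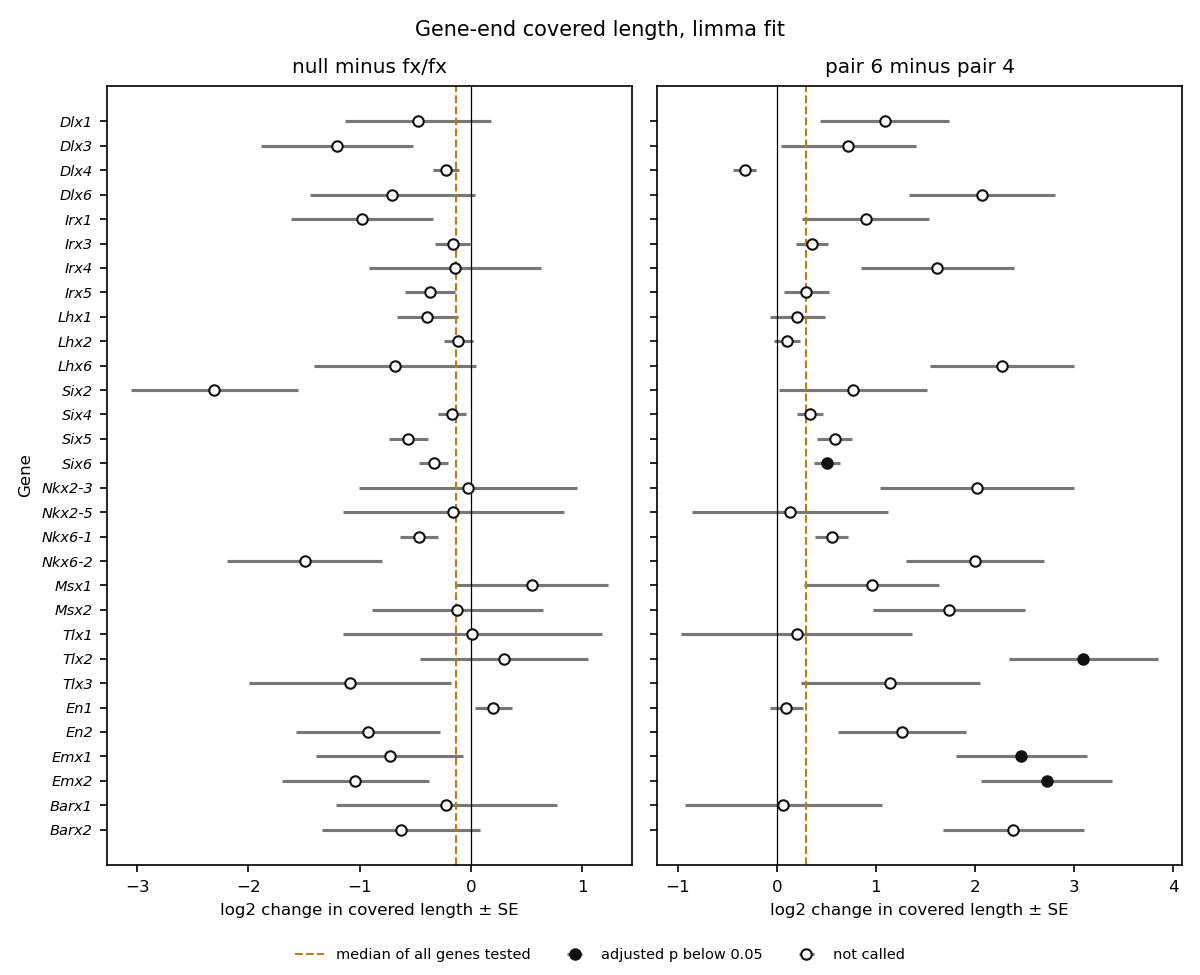
Log2 change in gene-end covered length (± SE, limma) of the 30 homeobox genes tested, null minus fx/fx on the left and pair 6 minus pair 4 on the right. Filled points passed an adjusted p of 0.05: none on the left, and Six6, Tlx2, Emx1 and Emx2 on the right; the dashed line is the median of all genes tested, -0.14 and 0.29.

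Irx1, another Iroquois gene, was the only member of the 37 whose null libraries all lay below its fx/fx libraries, beside 2.09 percent of all marked genes; it was singled out after its values were seen. It covered 1492, 0, 1415 and 1513 bp in null and 1579, 1550, 1810 and 2078 bp in fx/fx libraries, so that the highest null value lay just below the lowest fx/fx value. Its log2 difference was -0.98 ± 0.64 (SE; limma adjusted p = 0.531). No gene of the 37 had all null libraries above all fx/fx libraries, beside 0.044 percent.

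The steadily marked genes were compared by the width of the region they share across libraries. Among the 10171 regions present in all 8 lists, each centred on its library's median width, genotype called 0 regions in either direction (0.0 percent), of which 10 belonged to these genes. At an unadjusted p under 0.05, 375 regions were wider and 325 narrower in null, and among the 10 only Nkx6-1 was among the latter (-0.40 ± 0.17, SE; limma adjusted p = 0.721). The 10 changes had a median of -0.06, against 0.02 for all regions, and 7 of 10 were below 0.

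Irx3 and Irx5, Iroquois genes of one cluster on chromosome 8 that act in heart and limb, had the longest coverage. Irx5 covered 6226, 2841, 6194 and 5904 bp in null and 6681, 6063, 6367 and 7315 bp in fx/fx libraries. Its region also lies within 1000 bp of an end of the non-coding gene Crnde, and the only low value was that of 4_C2 replicate 2. Irx3 covered 3664, 2647, 3151 and 4703 bp in null and 3687, 3039, 4943 and 4197 bp in fx/fx libraries, with the genotypes overlapping. The region width changes were -0.13 ± 0.11 at Irx5 and -0.04 ± 0.10 at Irx3 (SE; limma adjusted p = 0.802 and 0.936).

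Six4, Six5 and Six6 were marked in all 8 libraries. Six4, which acts in muscle, covered 2154, 3049, 3676 and 3959 bp in null and 3419, 3329, 3613 and 3860 bp in fx/fx libraries. The Six4 region also lies within 1000 bp of an end of the neighbouring gene Mnat1. Six5, whose loss causes cataracts in mice, covered 2636, 1987, 2582 and 2764 bp in null and 2897, 2391, 5289 and 5354 bp in fx/fx libraries. The 2 longest of these values were those of clone 6_1. The whole Six5 region also lies within 1000 bp of an end of Dmpk. It was 4431, 1987, 4632 and 5512 bp wide in null and 4270, 2391, 5289 and 5354 bp in fx/fx libraries, with the longest width in null. Six6, an eye and pituitary gene, covered 1507, 1276, 1982 and 1768 bp in null and 1736, 1558, 3220 and 2169 bp in fx/fx libraries. At Six6 the peak present in all 8 lists lay at the 3′ end, and its start was marked in 1 list. The log2 differences in covered length were -0.17 ± 0.13 for Six4, -0.56 ± 0.17 for Six5 and -0.34 ± 0.13 for Six6 (SE; limma adjusted p = 0.558, 0.410 and 0.413). By region width the differences were 0.14 ± 0.08 for Six4, 0.04 ± 0.21 for Six5 and -0.02 ± 0.09 for Six6 (SE; limma adjusted p = 0.726, 0.973 and 0.967). Six3, a forebrain and eye gene, was marked in 1 null and 2 fx/fx libraries.

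Among the LIM-homeodomain genes, Lhx1, needed for head and kidney formation, covered 2618, 1594, 1967 and 1719 bp in null and 2095, 2136, 4753 and 2148 bp in fx/fx libraries. All but 1 of the fx/fx values lay inside the null range. Lhx2, which acts in eye and forebrain, was steady across libraries, with 1264, 1188, 1286 and 1289 bp in null and 1418, 1187, 1471 and 1446 bp in fx/fx libraries. Their region widths differed by -0.15 ± 0.26 at Lhx1 and 0.004 ± 0.09 at Lhx2 (SE; limma adjusted p = 0.914 and 0.994). En1, which marks the midbrain-hindbrain boundary and ventral limb ectoderm, covered 1766, 1592, 2801 and 1874 bp in null and 1795, 1878, 1505 and 1590 bp in fx/fx libraries. The longest value, in 6_C4 replicate 1, includes a second peak at the gene's other end, as does that of 4_C2 replicate 2. The change was 0.20 ± 0.17 in covered length and -0.07 ± 0.22 in region width (SE; limma adjusted p = 0.573 and 0.959).

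Tlx3, which specifies excitatory neurons of the spinal cord, covered 4342, 0, 3745 and 3551 bp in null and 3874, 3145, 4394 and 4192 bp in fx/fx libraries. Its peaks lay at both gene ends, and the genotypes overlapped apart from the missing peak in 4_C2 replicate 2. The Dlx genes, which pattern jaw, limb and forebrain, lie in 3 pairs of neighbours that were not marked alike. Dlx4 was marked in all 8, with 1739, 1916, 1225 and 1180 bp in null and 2079, 1649, 1759 and 1629 bp in fx/fx libraries. Its neighbour Dlx3 was marked in 3 null and 4 fx/fx libraries (log2 difference -1.20 ± 0.68, SE; limma adjusted p = 0.494). Dlx1 was marked in 7 libraries and Dlx2, beside it, in 6_1 replicate 2 alone, and of the third pair Dlx6 was marked in 5 and Dlx5 in 6_1 replicate 2 alone.

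The number of marked homeobox genes differed by 10.5 on average between isolate pairs (pair 6 minus pair 4) and by -3.5 between genotypes (null minus fx/fx). Pair 6 libraries marked 31.5 ± 1.29 of the 42 genes and pair 4 libraries 21.0 ± 6.48 (SD, n = 4 each), with 4_1 replicate 1 of pair 4, at 30, equal to the lowest of pair 6. More pair 6 than pair 4 libraries marked 23 of 37 genes (62.2%), beside 22.6 percent of all marked genes, and fewer did for Six3 alone, beside 2.47 percent. Of the genes marked in 1 to 7 libraries, the only ones that can differ, these were 23 of 27 homeobox genes and 3080 of 3710 among all genes. The reverse held at 1 of 27 and at 337 of 3710. Without 4_C2 replicate 2 a larger share of pair 6 libraries marked 21 of 37, beside 17.8 percent. The lists of pair 6 were the longer ones. In lists cut to equal length, a cut that removes short peaks first, the means were 16.25 ± 1.5 in pair 6 and 16.0 ± 2.16 in pair 4. By genotype the same lists gave 15.0 ± 1.41 in null and 17.25 ± 1.26 in fx/fx libraries. No gene was marked in all pair 6 and no pair 4 libraries (beside 1.01 percent) or the reverse (0.0367 percent). Of the first kind there were 5 without 4_1 replicate 1, and 1 without 4_C2 replicate 1 or 6_1 replicate 2. Shares of all genes were not counted for this rule with a library left out.

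In covered length the pair contrast called 4 of 30 homeobox genes longer in pair 6, beside 19.1 percent of all genes, and 0 shorter, beside 0.121 percent. The 4 of 30 is a smaller share than that of all genes. Emx1, Emx2 and Tlx2 were each marked in 4 pair 6 libraries and 1 pair 4 library, so they entered the fit through the pair in which they were longer. Emx2, a forebrain and urogenital gene, covered 994 and 2055 bp in 6_C4, 2367 and 2685 bp in 6_1, 0 bp in both 4_C2 libraries, and 1101 and 0 bp in 4_1 (log2 difference 2.73 ± 0.66, SE; limma adjusted p = 0.0332). Its relative Emx1 covered 1435 and 1382 bp in 6_C4, 1600 and 1677 bp in 6_1, 0 bp in both 4_C2 libraries, and 964 and 0 bp in 4_1 (2.47 ± 0.66; 0.0428). Tlx2, which acts in enteric neurons, covered 2753 and 1297 bp in 6_C4, 3277 and 3611 bp in 6_1, 1168 and 0 bp in 4_C2, and 0 bp in both 4_1 libraries (3.10 ± 0.75; 0.0337). At Emx1 and Tlx2 every pair 6 library lay above every pair 4 library, whereas at Emx2 the ranges overlapped. The Tlx2 region also lies within 1000 bp of an end of the gene Dqx1. Six6, whose values are given above, was the last of the 4 (0.51 ± 0.13, SE, limma adjusted p = 0.0413). Its 3220 bp in 6_1 replicate 1 include a separate peak of 1439 bp at the other end. By the width of its region in all 8 lists, the pair difference was 0.08 ± 0.09 (SE, limma adjusted p = 0.614).

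Each of these calls was lost in some of the fits that left out a library. The count of 4 became 0 without 4_C2 replicate 2, 4_1 replicate 2, or any of the 4 pair 6 libraries. It was also 0 when each library was centred on its median gene, where 1.81 percent of all genes were called longer and 0.85 percent shorter in pair 6, and the median log2 difference was 0.55 for the homeobox genes and 0.004 for all genes. Uncentred, those medians were 0.83 and 0.29. As in the genotype fit, a larger share of the homeobox genes than of all genes had libraries at 0 bp, so the base is not alike.

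Lhx6, which acts in cortical interneurons, and Barx2 and Dlx6 showed the same layout without passing. Lhx6 covered 1222 and 1567 bp in 6_C4, 1282 and 1430 bp in 6_1, 0 bp in both 4_C2 libraries, and 1179 and 0 bp in 4_1 (2.28 ± 0.73, SE; limma adjusted p = 0.0626). Barx2 covered 1760 and 1290 bp in 6_C4, 1206 and 1671 bp in 6_1, 0 bp in both 4_C2 libraries, and 1082 and 0 bp in 4_1 (2.39 ± 0.71; 0.0546). Dlx6 covered 1142 and 1156 bp in 6_C4, 1164 and 1174 bp in 6_1, 0 bp in both 4_C2 libraries, and 1176 and 0 bp in 4_1 (2.07 ± 0.74; 0.0803). In all 3 genes the single marked library of pair 4 was 4_1 replicate 1. Lhx5 was marked in 3 pair 6 libraries, with 1006 and 922 bp in 6_C4 and 995 and 0 bp in 6_1, and in no pair 4 library. Non-overlapping covered lengths, higher in pair 6, were seen at 9 of 37 genes (24.3%; Irx4, Lhx6, Six4, Six6, Msx2, Tlx2, En2, Emx1 and Barx2), beside 27.9 percent of all marked genes, and lower ones at 0, beside 0.257 percent.

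By region width, 1 of the 10 homeobox regions was called between pairs. Dlx4 was narrower in pair 6, beside 2.35 percent of all regions narrower and 4.24 percent wider in that pair. Its widths of 1225, 1180, 1759 and 1629 bp in pair 6 (6_C4, then 6_1) stood against 1739, 1916, 2079 and 1649 bp in pair 4 (4_C2, then 4_1), so the pairs overlapped slightly before centring. The log2 difference was -0.63 ± 0.14 (SE; limma adjusted p = 0.0277). The call was lost without 4_C2 replicate 1, either 6_C4 library, 4_1 replicate 1 or 6_1 replicate 2, and without centring (-0.37). The genotype effect on width differed between pairs at 0 regions (0.0 percent in either direction).

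The remaining genes are given by their counts and ranges. Of the marked genes not described so far, Irx4, a ventricular gene of the heart, was marked in 6 libraries with 942 to 1488 bp where marked. Nkx2-5, a heart gene, was marked in 6, Nkx2-3, a gut and spleen gene, in 6, and Nkx2-1, of thyroid and lung, in 6_C4 replicate 1 alone. Msx1 and Msx2, which act in tooth and skull, were marked in 7 and 6 libraries. Tlx1, needed for the spleen, was marked in 4, Barx1, of stomach and teeth, in 6, and En2, of the midbrain and cerebellum, in 7. None of those tested was called in any contrast, and Nkx2-1 was marked in too few libraries for the fit.

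Where strand is known, most of the marks were at the start of the gene. Of 31 genes with a RefSeq start, 26 had a gene-end peak, and 20 of these had it at the 5′ end in more lists than at the 3′ end. The 3′ end had more in Six6, Nkx2-3 and Nkx2-5, and 3 genes were equal. The same count over all genes was not taken. Peaks lay downstream of the start more than upstream: at 550 bp downstream 13, 12, 23 and 19 of 31 genes were covered in null and 19, 13, 21 and 22 in fx/fx libraries. At 550 bp upstream the counts were 6, 1, 9 and 9 in null and 10, 4, 9 and 12 in fx/fx libraries. Over all start sites, 45.7 to 55.1% were covered at 550 bp downstream and 25.7 to 38.5% at 550 bp upstream in null libraries. In fx/fx libraries these shares were 50.0 to 56.5% and 30.8 to 42.9%, so the downstream lean was shared by all genes. The best covered position reached 41.9, 38.7, 74.2 and 61.3% of the genes in null and 67.7, 45.2, 71.0 and 74.2% in fx/fx libraries. Over all start sites it reached 46.5 to 55.8% in null and 50.8 to 57.3% in fx/fx libraries. The homeobox genes thus lay below all genes in 4_C2 and 4_1 replicate 2 and above them in the other 5 libraries.

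**Figure D4:**
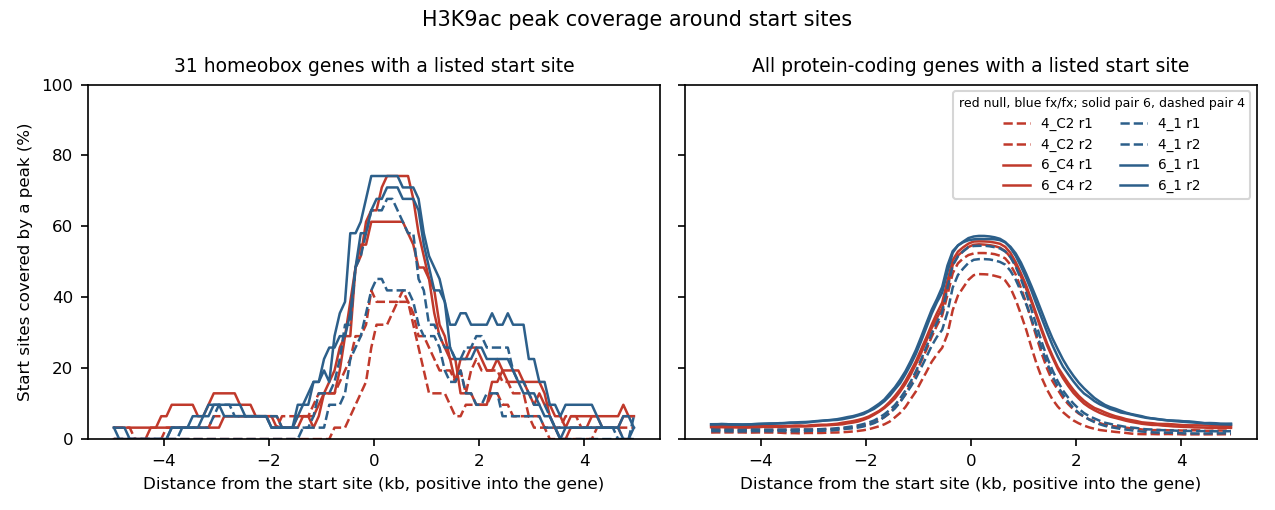
Share of start sites covered by a peak (percent) against distance from the start (kb, positive into the gene), for 31 homeobox genes (left) and all protein-coding genes with a listed start (right). Red is null and blue fx/fx, solid pair 6 and dashed pair 4; the homeobox curves spread from 38.7 to 74.2% at their highest, and the curves of all genes from 46.5 to 57.3%.

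The start windows of the 31 genes were CpG-rich. They held a median of 20 CpGs (4 to 50) in 300 bp, against 13 over 17492 protein-coding genes, and a median GC content of 63.3% against 56.3%. Those marked at the start in all 8 lists had a median of 24 CpGs (n = 8), those marked in 1 to 7 lists 21 (n = 20), and those marked in none 15 (n = 3). Among all genes these medians were 23, 15 and 3. The intermittently marked homeobox starts thus had more CpGs than intermittently marked starts in general, as a description of the reference sequence. The palindrome CGCG stood in 77.4% of the 31 windows and 49.5% of all windows. CACGTG, an E-box and likewise a palindrome, stood in 3 of 31 (En1, Dlx2 and Nkx2-2; 9.68% against 7.91%). TATAAA, searched on both strands, stood in Lhx3 alone (3.23% against 13.3%).

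**Figure D5:**
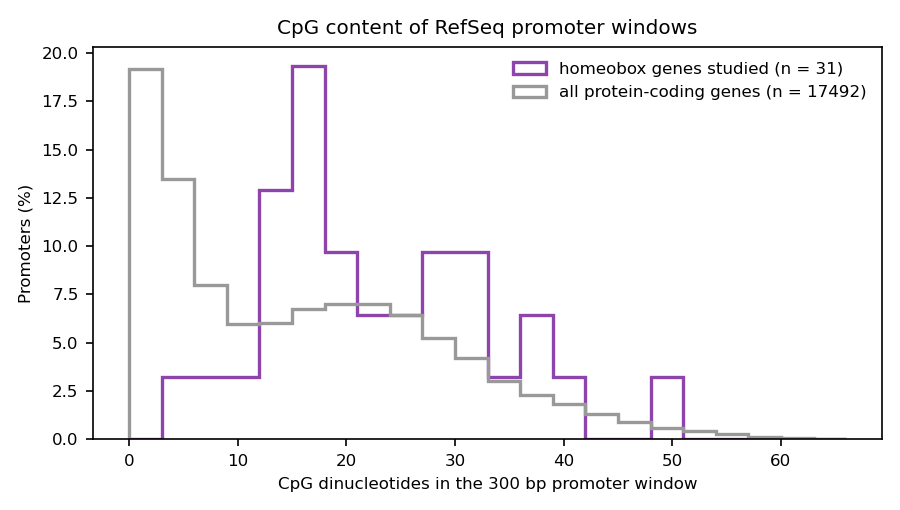
Distribution of CpG dinucleotides per 300 bp RefSeq start window, as percent of windows, for 31 homeobox genes and 17492 protein-coding genes. The homeobox distribution has a median of 20 and starts at 4; that of all genes has a median of 13 and its highest bin at the lowest counts.

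Genes that work with the homeobox genes were taken as 3 further lists. Of 26 Polycomb and Trithorax genes, whose complexes keep or relieve repression of homeobox genes, all were marked in all 8 libraries. None was called by genotype, and the median log2 difference was -0.14, equal to that of all genes. The largest differences were at Phc1 (-0.51 ± 0.18) and Kmt2d (-0.51 ± 0.43), then Kmt2a (-0.34 ± 0.07) and Rbbp4 (-0.31 ± 0.20), with limma adjusted p between 0.406 and 0.572. Of 16 cofactor genes of homeodomain proteins, 9 were marked in all 8, 2 in some and 5 in none. None of the 11 tested was called by genotype (median -0.21); the first of them were Eya4 (-1.03 ± 0.65), Dach1 (-0.93 ± 0.81), Lmo4 (-0.51 ± 0.24) and Tle1 (-0.34 ± 0.17), with limma adjusted p between 0.443 and 0.580. Of the 88 other homeobox genes 58 were tested and none was called by genotype (median -0.27, 51 of 58 below 0). Dmbx1 was marked in 1 null and 4 fx/fx libraries (-2.20 ± 0.75; limma adjusted p = 0.410), Barhl1 in 1 and 3 (-1.66 ± 1.00; 0.512) and Pou3f2 in 0 and 3, too few for the fit. The pair contrast called 9 of these 58 longer and 1 shorter in pair 6, 1 of 11 cofactor genes longer (Tle4), and 4 of 26 Polycomb and Trithorax genes longer (Eed, Pcgf6, Phc1 and Kmt2b), beside the 19.1 percent of all genes given above. It also called all 6 stem cell and epiblast markers (median log2 difference 1.44) as longer in pair 6. Of the 4 endoderm markers tested (median 2.28) it called 2, Sox17 and Foxa2. It called 0 of the 5 primitive streak and mesoderm markers tested (median 1.50) and 0 of the 4 neuroectoderm markers tested (median 1.01). The medians of the sets without calls were thus also above 0.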

How the data were processed

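H3K9ac was mapped by ChIP-seq in 8 libraries. The authors deposited 1 peak list per library, holding peak positions only, with no score. Per the submitters' processing notes, the tools were MACS 1.4.2 and Bowtie 1.1.2, on build mm10. No source used here gives the calling threshold, control or filters, and depth is unknown. The deposited lists thus set which peaks exist, and acetylation within a peak was not measured.

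Genes and starts came from RefSeq (GRCm38.p6); 31 of the 42 homeobox genes had a start entry, coordinates count from 1, and exons were not used. Peaks of all lists were merged into regions on overlap of at least 1 bp. Covered lengths were tested with limma 3.58.1 in R 4.3.3 (trend, robust, isolate pair as covariate, Benjamini-Hochberg at 0.05), on log2 width for regions in all 8 lists and log2(bp + 200) for genes in at least 4. Scripts were tested on simulated data. Python 3.11.15, pandas 2.3.3, numpy 2.4.6, SciPy 1.17.1 and matplotlib 3.10.9 were used.

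The homeobox genes and the gene lists were chosen with earlier results of these data known. Values per library are given for genes whose marked libraries differed by at least 2 between genotypes or 3 between pairs, those with a tested region and the 4 of longest mean coverage. From the other lists, up to 4 genes each with the largest differences between genotypes are named, and a gene that this rule takes is not reported here. Alternatives were window size, start sites only, overlap, list length, centring, merging gap, pair term, replicate block, detection filter, pseudocount and leaving out each library. The 16 other samples were not used here.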

Additional observations from a re-analysis of the deposited data

Results flagged for a closer look

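Sets of 4 libraries held the covered lengths of 1 gene in 1 genotype, or the number of marked homeobox genes in 1 genotype. Outlying values were sought by the gap to the nearest of the others divided by the set's range. In 13 of 71 sets, all of covered length, this exceeded Dixon's 95% critical value for 4 samples. Chance gives about 1 such set in 20, and a set with a single peak, or a single missing peak, tends to pass the criterion.

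In 6 sets only 1 library was marked. These were, in null, Six2 (1408 bp) and Nkx2-1 (1304 bp) in 6_C4 replicate 1 and Six3 (1111 bp) in 4_C2 replicate 1, and, in fx/fx, Dlx2 (2975 bp) and Dlx5 (1111 bp) in 6_1 replicate 2 and Lhx5 (995 bp) in 6_1 replicate 1. In 5 sets only 1 library lacked a peak. Irx1 and Barx1 were at 0 bp in 4_C2 replicate 2, and Dlx6, Nkx2-3 and Msx1 were at 0 bp in 4_1 replicate 2. Those are the shortest lists of their genotypes. In the other 2 sets Irx5 was low in 4_C2 replicate 2 (2841 bp) and Lhx1 high in 6_1 replicate 1 (4753 bp).

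En1 moved in opposite directions in the isolate pairs. In pair 6 both 6_C4 libraries lay above both 6_1 libraries, with a mean difference of 790 bp, null minus fx/fx. In pair 4 both 4_C2 libraries lay below both 4_1 libraries, with a mean difference of -157.5 bp. The difference between the pairs was 0.63 ± 0.26 (SE) on the log2 scale for covered length (limma adjusted p = 0.955) and 0.85 ± 0.35 for region width (limma adjusted p = 0.743), and neither was called.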

How the results depend on the processing

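Beside other rules for a mark, the number of marked homeobox genes was lower in null and higher in pair 6 throughout, by -6.83 to -0.333 and by 8.5 to 13.5 genes when 1 library was left out. In equal-length lists the pair 6 excess was 0.25. With 1 library left out, genes marked in fx/fx only numbered 0 to 1, absent from pair 4 null 2 to 7, present there only 0 to 2, absent from pair 6 null 1 to 4, present there only 1 to 2, and in pair 6 only 0 to 5. The shares of all genes were not counted for these. Genes absent from pair 6 null numbered 2 with a 500 bp window, 2 with an overlap of at least 500 bp, 2 in equal-length lists and 0 by start sites. Those present there only numbered 0 by start sites and 2 in equal-length lists, and those present in pair 4 null only 1 in equal-length lists. With any peak across the gene span, an alternative chosen after seeing the data, 1 gene was absent from pair 4 null.

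By genotype, 0 homeobox genes were called in every alternative of either fit. Region calls were 1 wider and 1 narrower in equal-length lists, and 0 to 3 narrower when 1 library was left out. The replicate block, with replicate number within the isolate pair as the block, likewise called 0 regions and 0 genes. For each clone the difference in log2 region width between replicates 1 and 2 was taken. Over 10171 regions these differences correlated between partner clones at 0.109 in pair 4 and 0.0624 in pair 6. The labels do not say that a number marks a shared experiment, so the numbers were not used to pair libraries. The pair contrast could not be fitted with that block or without the pair term.

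Between pairs, regions wider in pair 6 numbered 2699 uncentred, 1266 in at least 4 lists and 253 to 363 with 1 library left out, and narrower ones 22, 754 and 52 to 116, and 153 in equal-length lists. Homeobox regions called wider were 2 uncentred and 2 in at least 4 lists; narrower ones were 0 uncentred, 0 in equal-length lists and 0 to 1 with 1 library left out. In covered length, genes longer in pair 6 numbered 224 when centred and 525 to 3034 with 1 library left out, and shorter ones 105 centred, 98 in equal-length lists and 2 to 7. Homeobox genes longer in pair 6 were 0 centred, 0 in equal-length lists and 0 to 6. The genotype effect differed between pairs, positive and negative, at 1 and 0 genes in equal-length lists, 1 and 0 with a pseudocount of 50 bp, and 0 to 935 and 0 to 29 with 1 library left out, with 0 to 5 homeobox genes. For region width it did at 8 regions in at least 4 lists and 0 to 1 with 1 library left out.

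The sign of small region changes by genotype turned uncentred at Lhx2 (-0.13) and Six5 (-0.091). Leaving out 1 library gave ranges of -0.18 to 0.20 at En1, -0.10 to 0.015 at Irx3, -0.34 to 0.14 at Lhx1, -0.042 to 0.033 at Lhx2, -0.13 to 0.22 at Six5 and -0.083 to 0.0066 at Six6. The causes were not tested. List length, depth and peak height cannot be told apart in these files.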
